A study of Mus musculus with 4 samples.

Results

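Immature neutrophils that still carried transcripts of the specific granules were examined in the ascites of tumor-bearing mice. A barcode was counted as one when it held 400 to 4800 genes and at most 15% mitochondrial UMIs (unique molecular identifiers), gave at least 1% of its UMIs to S100a8 and S100a9, held at least 5 UMIs of Ngp, Camp and Ltf together, and had 0 UMIs of C1qa, C1qb, Cd79a and Cd3e. In all, 204 barcodes met this rule, of 113769 that were within the limits on genes and mitochondrial UMIs and 133849 deposited. There were 5 and 27 such cells in siCont-LNA replicates 1 and 2, and 88 and 84 in siFXR1-LNA replicates 1 and 2. Sets of 4 values below are given in this order. The cells were chosen on their levels of Ngp, Camp, Ltf, S100a8 and S100a9, and those levels are described without a test.

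All mice were female FVB/NJ animals that had received Br-Luc cells in the peritoneum, a mouse ovarian tumor line that lacks p53 and brca1 (p53-/-; brca1-/-) and carries myc and Akt-myr, and ascites was collected 6 weeks later. Both groups were given a small interfering RNA (siRNA) modified with locked nucleic acid (LNA) in jetPEI, either a control (siCont-LNA) or one directed at Fxr1 (siFXR1-LNA). Each group had 2 libraries and each library the pooled ascites of 3 mice, so p-values measure the spread between pools and single mice could not be told apart. Red cells had been lysed before capture with the 10x Genomics 3' assay, and the methods state that a siFXR1-LNA replicate was set aside without naming it.

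Neutrophils fill their granules in sequence while they mature in the bone marrow. Azurophil granules with myeloperoxidase and elastase are loaded first, in promyelocytes. Specific granules with lactoferrin (Ltf), cathelicidin (Camp), neutrophilic granule protein (Ngp) and lipocalin-2 (Lcn2) follow in myelocytes and metamyelocytes, driven by the transcription factor C/EBP epsilon (Cebpe), and gelatinase granules with Mmp8 and Mmp9 come after them. Mature neutrophils have switched most of these genes off, carry the receptors Cxcr2 and Csf3r, and on activation make chemokines such as Cxcl2 and the cytokine Il1b. G-CSF and inflammation, tumors included, are known to release immature neutrophils from the marrow early.

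The genes that define the cells lie on mouse chromosome 9 (GRCm38.p6): Ngp at 110419808 to 110423012, Camp at 109847377 to 109849456 and Ltf at 111019292 to 111042766. Their promoters are printed because the cells are defined by these genes. RefSeq windows run from 250 bases before to 50 bases after the gene's start and are read 5′ to 3′ on the coding strand, for Ngp at chr9:110419558-110419857 (plus strand), for Camp at chr9:109849407-109849706 (minus strand) and for Ltf at chr9:111019042-111019341 (plus strand). Capitals mark matches on either strand to TTGCNNAA, a short form of the site that C/EBP factors bind.
Ngp: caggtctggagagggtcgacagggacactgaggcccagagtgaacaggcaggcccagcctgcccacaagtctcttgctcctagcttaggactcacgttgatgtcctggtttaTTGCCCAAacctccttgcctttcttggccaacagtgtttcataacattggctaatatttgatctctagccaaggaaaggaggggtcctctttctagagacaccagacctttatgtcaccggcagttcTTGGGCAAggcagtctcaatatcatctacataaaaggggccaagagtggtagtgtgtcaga
Camp: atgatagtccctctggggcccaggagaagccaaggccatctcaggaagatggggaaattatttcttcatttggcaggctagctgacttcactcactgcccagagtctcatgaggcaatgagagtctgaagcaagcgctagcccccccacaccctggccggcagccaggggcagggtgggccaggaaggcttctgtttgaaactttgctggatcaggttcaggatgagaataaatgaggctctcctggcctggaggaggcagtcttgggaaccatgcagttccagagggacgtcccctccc
Ltf: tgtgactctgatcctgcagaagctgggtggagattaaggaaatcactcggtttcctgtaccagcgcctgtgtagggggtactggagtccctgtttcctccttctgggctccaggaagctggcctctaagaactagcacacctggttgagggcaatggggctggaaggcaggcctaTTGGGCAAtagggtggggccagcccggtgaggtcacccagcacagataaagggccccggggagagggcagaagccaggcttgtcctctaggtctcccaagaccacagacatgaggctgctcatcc
The Ngp window held 2 matches, the Ltf window 1 and the Camp window 0. Of the 12 genes listed for specific granules, 10 are in the RefSeq table and 4 of these held a match (Ltf, Ngp, Lcn2 and Fcnb). Of all 32851 windows of this length 10.8% held one. The spelling was settled after matches had been seen, so the matches describe the sequence only.

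Fxr1 (chromosome 3, 34020058 to 34069980), the target of the LNA-modified siRNA, stood over all kept barcodes at 56.6, 53.3, 104 and 71.9 CPM (UMIs per 1000000 UMIs of the cells summed). Over this mixture of cell types the target was higher, not lower, in both libraries labelled siFXR1-LNA. Tumor cells were not looked at separately here, and directions below are given between labels. In the immature neutrophils Fxr1 rested on 1, 4, 24 and 16 UMIs, or 51.01, 26.7, 67.7 and 39.3 CPM. The exact 95% Poisson intervals ran from 1.29, 7.28, 43.4 and 22.4 CPM to 284, 68.4, 101 and 63.8 CPM, overlapped, and cover counting error only. Its relatives were sparse in these cells as well, Fxr2 at 0, 6.68, 28.2 and 24.5 CPM and Fmr1 at 153, 13.4, 39.5 and 31.9 CPM.

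The depth per cell was alike in all libraries, but the number of cells was not. The median immature neutrophil held 3343, 4529, 3390 and 4358.5 UMIs and 1099, 1401, 1274.5 and 1469 genes. Together the cells held 19605, 149802, 354417 and 407466 UMIs, so that 1 UMI was worth 51.01, 6.68, 2.82 and 2.45 CPM. In siCont-LNA replicate 1 a gene at a single UMI thus already stood at 51.01 CPM.

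The label was checked against markers the rule had not used. Cd177, Itgb2l and Ly6g, surface proteins of the neutrophil lineage, were found in every library, Ly6g at 357, 648, 81.8 and 162 CPM. The summed B cell markers stood at 0, 6.68, 0 and 0 CPM, NK cell markers at 0, 6.68, 0 and 0 CPM, and T cell markers at 0, 66.8, 14.1 and 24.5 CPM. Dendritic cell, eosinophil and platelet markers summed to 0, 20.03, 5.64 and 2.45 CPM, 0, 6.68, 2.82 and 0 CPM and 0, 53.4, 155 and 253 CPM. The cells therefore held neutrophil genes. Their low lymphocyte sums were in part fixed by the rule, which left out barcodes with UMIs of Cd79a or Cd3e. This check concerns the lineage only, and the word immature rests on the UMIs of Ngp, Camp and Ltf in the rule. Genes of the maturation stage are described below. Stray UMIs were common all the same, and 0, 2, 3 and 0 cells had 0 UMIs over the macrophage, B, T, NK and dendritic cell, mast cell, tumor or mesothelial and stromal lists together. Monocyte markers, Ly6c2 foremost, summed to 1377, 1489, 584 and 717 CPM. The 6 macrophage markers summed to 102, 73.4, 305 and 579 CPM, with Adgre1 at 0 in both libraries labelled siCont-LNA.

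Of all neutrophil barcodes, those that passed the S100a8 and S100a9 share and the exclusion genes (105, 375, 2174 and 1560), the immature cells made up 4.76% (exact binomial interval 1.56 to 10.8), 7.20% (exact binomial interval 4.798 to 10.3), 4.05% (exact binomial interval 3.26 to 4.96) and 5.38% (exact binomial interval 4.32 to 6.62). The groups overlapped, and the mean difference, siFXR1-LNA minus siCont-LNA, was -1.26 percentage points (two-sided exact permutation test, p = 0.667). Of all kept barcodes they made up 0.0152% (exact binomial interval 0.00494 to 0.0355), 0.269% (exact binomial interval 0.178 to 0.392), 0.162% (exact binomial interval 0.1302 to 0.1999) and 0.504% (exact binomial interval 0.402 to 0.623). Here siFXR1-LNA replicate 2 was highest and siCont-LNA replicate 1 lowest, the groups again overlapped, and the difference was 0.191 percentage points (exact permutation test, p = 0.667). An exact permutation test of 2 libraries against 2 cannot reach 0.05, and the smallest p it allows is 0.3333. The share of neutrophils depended on where the limits were set. With at least 1000 genes per barcode it was 23.1, 31.2, 8.21 and 8.85%, with at least 0.5% of UMIs from Ngp, Camp and Ltf 4.76, 4.80, 1.43 and 2.05%, and with at least 10 such UMIs 4.76, 5.87, 2.25 and 3.27%, each lower in both libraries labelled siFXR1-LNA. With at least 5% of UMIs from S100a8 and S100a9 it was 12.2, 13.3, 22.2 and 17.02%, higher in both. Each of these 4 settings gave the smallest p the exact test allows, in opposite directions, so no direction was read from the share. Of the neutrophil barcodes, 22, 10, 890 and 497 held 0 UMIs of Ngp, Camp, Ltf, Csf3r and Cxcr2. How many of these were neutrophils was not tested, so the denominator may not be alike between libraries.

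At the edges of the rule, 14 cells sat at exactly 5 UMIs of Ngp, Camp and Ltf, and 22 neutrophil barcodes sat just outside at 4. The lowest S100a8 and S100a9 share inside was 1.28%, and the highest of 4 barcodes outside was 0.969%. A further 154 barcodes (7, 14, 34 and 99 by library) were left out for UMIs of C1qa, C1qb, Cd79a or Cd3e, 79 of them for a single UMI. Of the 204 barcode sequences 18 also occurred in another library, and 0 were immature neutrophils in more than 1 library.

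The amount of granule RNA per cell varied widely. Ngp, Camp and Ltf took a median of 9.66, 2.43, 0.345 and 0.3399% of a cell's UMIs. The lowest cells stood at 0.713, 0.1302, 0.0974 and 0.0877% and the highest at 13.3, 10.4, 5.24 and 8.602%. Most cells of both libraries labelled siFXR1-LNA held little of this RNA, with 57 of 88 and 52 of 84 under 0.5%, against 0 of 5 and 9 of 27 in the others. At 5% or more stood 4 of 5, 8 of 27, 1 of 88 and 4 of 84 cells. These values chose the cells and were not tested.

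**Figure D1:**
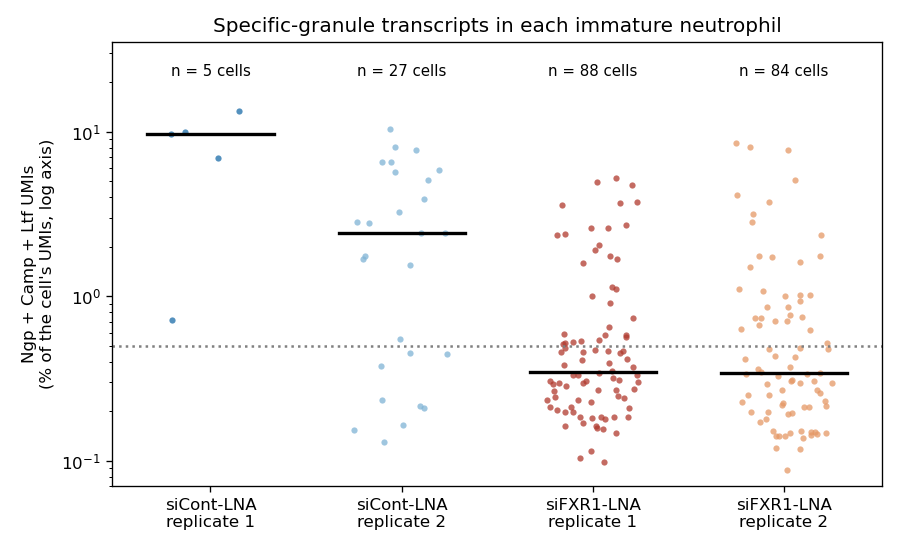
Each point is an immature neutrophil, by library (horizontal axis) and by the percent of its UMIs from Ngp, Camp and Ltf (vertical log axis). Black bars are medians (9.66, 2.43, 0.345 and 0.3399%) and the dotted line marks 0.5%, under which lie most cells of the libraries labelled siFXR1-LNA.

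The defining genes did not appear in equal shares of the cells. After each cell was thinned to 1000 UMIs, Ngp was seen in 100, 96.3, 98.9 and 97.6% of the cells. Camp, the precursor of an antimicrobial peptide, was seen in 80, 59.3, 19.3 and 14.3%, and Ltf, which binds iron, in 100, 62.96, 18.2 and 14.3%. In the libraries labelled siFXR1-LNA, Ngp alone of the 3 genes was thus seen in most cells, and there the word immature rests mainly on Ngp. B cells of the same libraries, which do not express these genes, had median depths of 2766, 3099, 2406 and 2589.5 UMIs and, thinned alike, showed Ngp in 0.112, 0.334, 0.634 and 1.58%. At least 5 UMIs of the 3 genes together were held by 0.0277, 0.123, 0.211 and 0.521% of B cells.

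Summed over the immature cells, Ngp stood at 45856, 20193, 7570.2 and 10389 CPM, Camp at 41622, 10814, 2119 and 2010.0 CPM and Ltf at 13619, 5774, 852 and 1389 CPM. S100a8, a subunit of calprotectin, stood at 89722, 90907, 53349.6 and 80674 CPM and its partner S100a9 at 131242, 109485, 61676 and 78610.2 CPM. All 5 were lower in both libraries labelled siFXR1-LNA than in both labelled siCont-LNA.

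Other specific-granule genes did not all follow Ngp. Lcn2, which binds siderophores, was seen in 100% of the thinned immature cells of every library and stood at 9691, 12930.4, 10157.5 and 16772 CPM. Wfdc21 stood at 2703, 2750.3, 2221 and 3257 CPM, Chil3, a chitinase-like protein, at 3571, 1896, 2452 and 3161 CPM and Hp, haptoglobin, at 918, 1849, 1055 and 2358 CPM. The groups overlapped in all 4 of these genes in the immature cells. In mature neutrophils Lcn2 stood at 491, 1334, 8571 and 13551 CPM. Its level in the immature cells was thus not particular to them in the libraries labelled siFXR1-LNA. Cd177, a surface protein that binds proteinase 3, stood at 1734, 1255, 553 and 547 CPM and Itgb2l, an integrin chain, at 255, 240.3, 64.9 and 85.9 CPM, both lower in each library labelled siFXR1-LNA, but short of the test (edgeR adjusted p = 0.262 and 0.0963). Olfm4, a gene of a subset of specific granules, was at 255, 0, 16.9 and 63.8 CPM.

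Azurophil transcripts were rare and came mostly from few cells. Elane, neutrophil elastase, was found in 1 cell of each library, with 1, 20, 14 and 1 UMIs. Prtn3, proteinase 3, was found in 0, 3, 8 and 14 cells, and 43 of 45 UMIs in siCont-LNA replicate 2 and 44 of 57 in siFXR1-LNA replicate 1 came from one cell each. Mpo, myeloperoxidase, was found in 0, 1, 1 and 3 cells. Of the 7 azurophil genes 3 could be tested between labels and 0 passed, with a median log2 change of -1.18.

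Gelatinase-granule genes were expressed in all libraries. Mmp8, neutrophil collagenase, stood at 408, 1549, 528 and 1014 CPM and Mmp9, gelatinase B, at 255, 1849, 883 and 1109 CPM. Retnlg, a resistin-like protein of neutrophils, stood at 2193, 28211, 17891 and 22642 CPM. Its median per cell was 2.99, 368, 199 and 222 UMIs per 10000, so the 5 cells of siCont-LNA replicate 1 had the most Camp and the least Retnlg.

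Within a library the cells could be set out by their own granule share, as a description, since this share is part of the rule. Cells at 0.5% or more (18, 31 and 32 in siCont-LNA replicate 2 and siFXR1-LNA replicates 1 and 2) were set against those below (9, 57 and 52), on log2(CPM + 5). Cybb, the gp91phox subunit of the NADPH oxidase, was higher in the granule-rich cells by 3.12, 2.63 and 1.60, annexin A1 (Anxa1) by 1.36, 1.28 and 1.65, and Itgb2l by 2.70, 1.55 and 1.90. Cebpe was higher by 1.16, 3.14 and 2.33 and Chil3 by 3.64, 2.21 and 0.28. Genes of late maturation went the other way, with Il1b at -2.47, -2.57 and -1.24, Wfdc17 at -3.56, -2.09 and -1.07, the decoy interleukin-1 receptor Il1r2 at -1.34, -0.61 and -1.25, G0s2 at -1.48, -1.68 and -0.91 and Csf3r at -1.47, -0.41 and -0.80. Lcn2 (1.08, 0.25 and 0.05) and Mmp8 (-0.39, -0.09 and -0.35) moved less. Each of these genes kept its sign in all 3 libraries, but for Il1b the sign in siCont-LNA replicate 2 rests on 1 UMI and carries no weight.

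Mature neutrophils of the same libraries (74, 316, 938 and 763 cells with 0 UMIs of Ngp, Camp and Ltf and at least 1 of Csf3r or Cxcr2) were set beside the immature cells, again as a description because the rule separates them. Ranked by the median log2 ratio over the 4 libraries were 288 genes of at least 100 CPM in the immature cells of every library. Fcnb, Cebpe and Adpgk were below this limit in the libraries labelled siFXR1-LNA and were not ranked. Of the ranked genes outside the rule, the largest medians were those of Ifitm6 (4.19), Cd177 (4.02), the elastase inhibitor Serpinb1a (3.72), Anxa1 (2.64), Cybb (2.51), Syne1 (2.47), the histone deiminase Padi4 (2.26), the urokinase receptor Plaur (2.03), Hmgn2 (2.01) and Mapk13 (1.95), all positive in each of the 4 libraries. Those of Cybb (6.65, 4.11, 0.91 and 0.43) and Syne1 (5.62, 3.60, 1.35 and 0.79) were far smaller in the libraries labelled siFXR1-LNA. Ifitm6 stood at 1989, 6075, 2379 and 2732 CPM in the immature and 96.6, 404, 136 and 129 CPM in the mature cells. For the other direction 595 genes of at least 100 CPM in the mature cells of every library were ranked alike. Among the smallest medians, higher in the mature cells of every library were the lectin Clec4n (median -4.20), perforin-2 (Mpeg1, -2.65), Sirpb1b (-1.85), Zfp36l1 (-1.75), Bnip3 (-1.56) and Mif (-1.51). The medians of Il1b (-3.24) and Cxcl2 (-1.58) came from the libraries labelled siCont-LNA, since the ratios by library were -7.21, -6.26, -0.23 and 0.19 for Il1b and -4.87, -2.85 and -0.31 in the first 3 libraries for Cxcl2, which was level in siFXR1-LNA replicate 2. Csf3r (-1.92) is on that side by construction. The others there were Apoe (-1.69) and the red cell genes Hbb-bt, Hbb-bs, Alas2, Hba-a1 and Hba-a2 (-1.86 to -1.62). The red cell list summed to 6069.9, 35547, 52709 and 18610.1 CPM in the immature and 197415, 190222, 65189 and 38113 CPM in the mature cells.

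**Figure D2:**
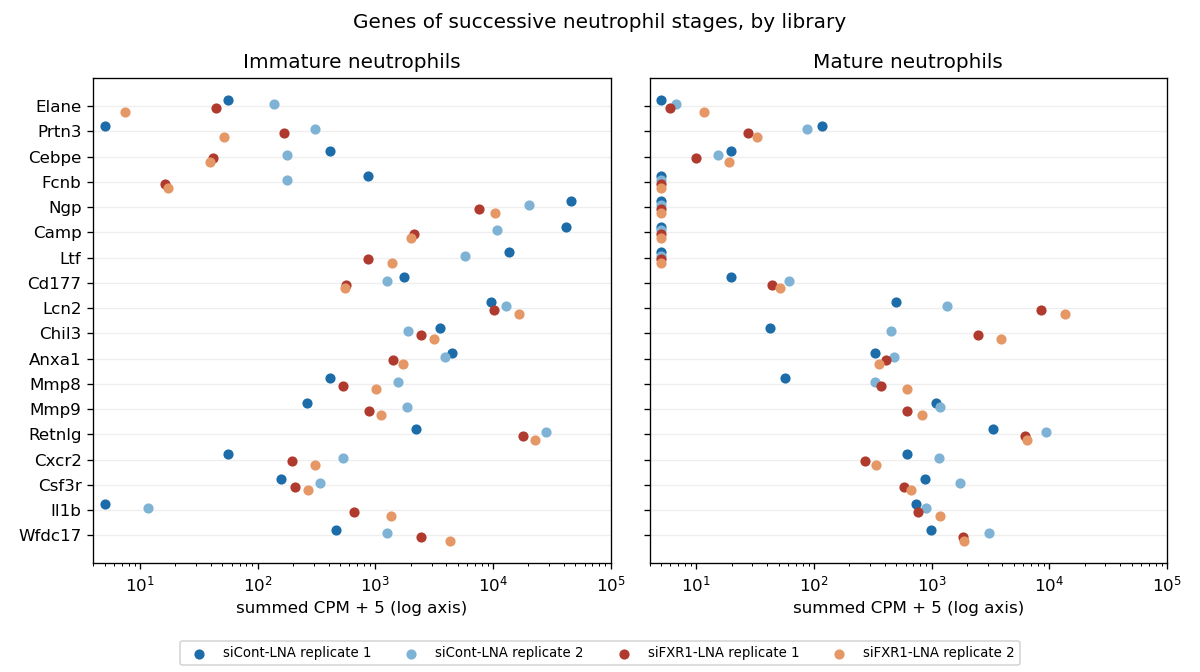
Summed CPM plus 5 (log axis) of genes of successive neutrophil stages in immature (left) and mature (right) neutrophils, with 1 point for each library. Ngp, Camp and Ltf are at 0 in the mature cells by the rule. Lcn2 lies between 9691 and 16772 CPM in the immature and between 491 and 13551 CPM in the mature cells.

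Genes were next compared between the labels over the summed immature neutrophils. The plan asked for 10 such cells in each library, and siCont-LNA replicate 1 had 5, so running the test was a choice made after the counts had been seen. By edgeR's quasi-likelihood F-test, with p adjusted by Benjamini and Hochberg over 3338 genes, 20 genes (0.599% of those tested) rose and 15 (0.449%) fell under the siFXR1-LNA label at an adjusted p of 0.05, which is 35 genes or 1.05%. Of the 3338 genes, 488 had an unadjusted p under 0.05 in this test. Without siCont-LNA replicate 1, 223 genes passed, among them 34 of the 35. Among cells at 0.5% or more of granule UMIs 3 genes passed, and with at least 10 granule UMIs 2 passed, while the 23 and 30 of the 35 that could be tested there kept their direction. Ifi27l2a and Saa3 passed in both of these stricter sets. The granule share of the cells differed between labels, so changes in genes that follow this share cannot be told apart from it.

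Genes of inflammatory activation led those that rose. Il1b (chromosome 2, 129364569 to 129371164), the interleukin-1 beta precursor, had 0, 1, 230 and 550 UMIs in 0, 1, 45 and 58 cells, or 0, 6.68, 649 and 1349.8 CPM. It was found in over 50% of the immature neutrophils of both libraries labelled siFXR1-LNA and in a single cell of the others. It rose by 7.26 ± 1.03 (log2 fold change, SE, edgeR adjusted p = 0.00807), and the ratio of the pooled levels was 173, with a 95% counting interval of 31.04 to 6859. In the mature neutrophils Il1b stood at 736, 890.1, 761 and 1182 CPM, where the groups overlapped.

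Cxcl2 (chromosome 5, 90903899 to 90905938), a ligand of Cxcr2, stood at 0, 66.8, 2127 and 4263 CPM and rose by 5.86 ± 0.89 (edgeR adjusted p = 0.00807). Cxcl3, its neighbour and another Cxcr2 ligand, stood at 0, 0, 262 and 839 CPM, at least 32.2-fold higher against a floor of 3 counts over the siCont-LNA cells (17.7 CPM). It too passed the test (edgeR adjusted p = 0.0266). The chemokine Ccl3 at 0, 0, 127 and 174 CPM was at least 8.598-fold higher, and Ccrl2, a receptor that binds chemerin, at 0, 0, 133 and 152 CPM at least 8.08-fold higher (edgeR adjusted p = 0.0324 for both). Cd14, a co-receptor for endotoxin, stood at 0, 86.8, 934 and 2000.2 CPM and rose by 4.38 ± 0.82 (edgeR adjusted p = 0.0324). Acod1, the enzyme that makes itaconate, stood at 0, 40.1, 279 and 699 CPM, and Sod2, the mitochondrial superoxide dismutase, at 0, 26.7, 245 and 626 CPM. They rose by 3.81 ± 0.82 and 4.19 ± 0.86 (edgeR adjusted p = 0.0463 and 0.0423).

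The promoter windows of Cxcl2 (chr5:90903649-90903948) and Cxcl3 (chr5:90785851-90786150), both on the plus strand of GRCm38.p6, are printed because these neighbours rose together. Capitals mark matches on either strand to GGNNTTTCC, a form of the site that NF-kB factors bind.
Cxcl2: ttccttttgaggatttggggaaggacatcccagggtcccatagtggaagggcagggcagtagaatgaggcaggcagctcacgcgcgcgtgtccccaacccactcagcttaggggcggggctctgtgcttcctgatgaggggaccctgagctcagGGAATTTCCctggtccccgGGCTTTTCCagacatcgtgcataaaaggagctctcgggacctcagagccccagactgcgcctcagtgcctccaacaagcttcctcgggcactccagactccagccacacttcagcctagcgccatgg
Cxcl3: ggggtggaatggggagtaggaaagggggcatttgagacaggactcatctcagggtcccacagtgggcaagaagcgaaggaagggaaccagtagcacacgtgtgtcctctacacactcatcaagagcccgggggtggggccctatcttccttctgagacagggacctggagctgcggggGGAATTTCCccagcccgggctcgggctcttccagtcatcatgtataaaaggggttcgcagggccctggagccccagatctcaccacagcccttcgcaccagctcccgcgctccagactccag
The Cxcl2 window held 2 matches and the Cxcl3 window 1. The RefSeq table holds 17 of the genes that rose, and 6 of these windows had a match, as had 1 of 10 of the genes that fell and 5.82% of all windows. This spelling too was settled after matches had been seen.

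Of the 16 genes listed for inflammatory activation 13 could be tested, and 6 rose (Il1b, Cxcl2, Ccl3, Cd14, Acod1 and Sod2) and 0 fell. Of all genes tested 0.599% rose. The median log2 change of the 13 was 4.19, beside 0.112 over all genes tested. All 6 had 0 UMIs in siCont-LNA replicate 1 and passed the filter on low counts through the libraries labelled siFXR1-LNA. Being tested thus favoured a positive sign, and the count and median of this list are a description. Nfkbia, the inhibitor of NF-kB, at 153, 207, 556 and 964 CPM, and Il1rn, the interleukin-1 receptor antagonist, at 51.01, 40.1, 144 and 417 CPM, did not pass (edgeR adjusted p = 0.1195 and 0.0963). Tnf stood at 51.01, 20.03, 47.97 and 95.7 CPM, where the groups overlapped.

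Granule and activation transcripts were found in the same cells. Among cells at 0.5% or more of granule UMIs, thinned to 1000 UMIs, Il1b or Cxcl2 was seen in 0 of 5, 0 of 18, 12 of 31 and 20 of 32. Under 0.5% it was seen in 1 of 9, 44 of 57 and 48 of 52 of siCont-LNA replicate 2 and siFXR1-LNA replicates 1 and 2. Most cells under 0.5% in the libraries labelled siFXR1-LNA thus held little granule RNA together with transcripts that mature neutrophils make on activation. The maturation stage of these cells was not settled. B cells thinned alike gave 0.786, 0.918, 13.1 and 17.8%, below the immature neutrophils of the libraries labelled siFXR1-LNA, where the shares in the granule-rich cells were 38.7 and 62.5%. In the granule-rich cells Cxcl2 stood at 66.2, 740.1 and 2719 CPM, Il1b at 0, 163 and 772 CPM and Cd14 at 47.3, 367 and 1572 CPM in siCont-LNA replicate 2 and siFXR1-LNA replicates 1 and 2. The direction between labels was therefore seen in cells at 0.5% or more too, but these were not matched in granule RNA. Their median share of Ngp, Camp and Ltf was 9.66, 3.59, 1.60 and 1.05%, lower in both libraries labelled siFXR1-LNA. Il1b, Cxcl2 and Cd14 were not among the genes that passed the test in this set.

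Stfa3, a stefin A inhibitor of cysteine proteases, stood at 0, 0, 212 and 832 CPM, from 0, 0, 14 and 27 cells, and was at least 30.7-fold higher (edgeR adjusted p = 0.0324). It was near 0 in B cells (0, 0.421, 0.704 and 2.43 CPM) and stood at 0, 22.04, 35.4 and 45.5 CPM in mature neutrophils. Its neighbours in the cluster did not pass, with Stfa1 at 0, 394, 643 and 1048 CPM, Stfa2 at 0, 214, 672 and 974 CPM, Stfa2l1 at 0, 414, 917 and 1674 CPM and Cstdc4 at 0, 1041, 1352 and 2233 CPM. Of 5 genes of the cluster tested 1 rose, with a median log2 change of 2.19. These genes are near-identical copies, so the counts of each are uncertain.

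Other genes that rose were as high or higher in B cells. Saa3, an acute-phase serum amyloid A, stood at 102, 53.4, 4371 and 5689 CPM in the immature neutrophils (6.29 ± 0.81, edgeR adjusted p = 0.00807) and at 219, 212, 12039 and 13908 CPM in B cells. The metallothioneins Mt1, at 51.01, 20.03, 796 and 1053 CPM against 156, 58.1, 1237 and 1193 CPM in B cells, and Mt2, at 0, 0, 98.8 and 128 CPM against 11.1, 2.84, 286 and 257 CPM, were alike in this. Of the 20 genes that rose, 8 stood at over 3 times the B cell level in both libraries labelled siFXR1-LNA (Cxcl3, Stfa3, Ccrl2, Il1b, Cxcl2, Acod1, Cd14 and Cass4). The other 12 were Saa3, Mt1, Mt2, Ccl3, Sod2, the kinase Ikbke, the cell cycle inhibitor Cdkn1a, F11r, Sdc4, transferrin (Trf), Bsg and cathepsin L (Ctsl), and 9 of the 12 were at or below the B cell level in at least 1 library. The macrophage list moved with these genes (102, 73.4, 305 and 579 CPM), as did the stromal list (51.01, 20.03, 432 and 115 CPM), and the tumor or mesothelial list stood at 408, 66.8, 561 and 289.6 CPM. The part of RNA from other cells in these rises was not tested.

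**Figure D3:**
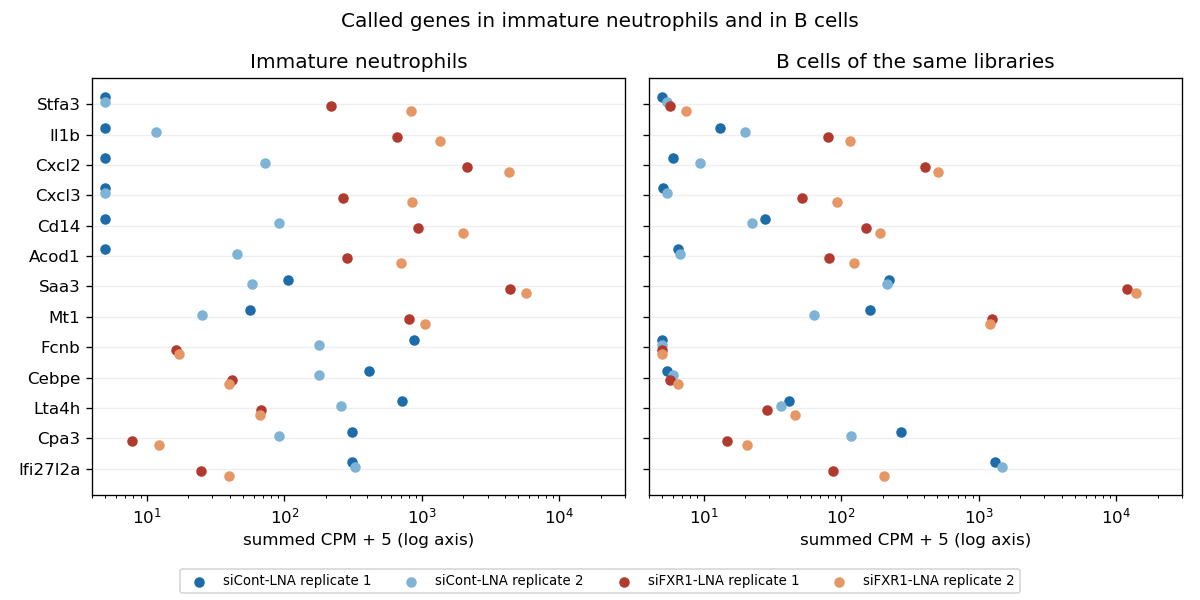
Summed CPM plus 5 (log axis) of 13 of the 35 genes that passed the test, in immature neutrophils (left) and in B cells of the same libraries (right), with 1 point for each library. In the libraries labelled siFXR1-LNA, Stfa3, Il1b, Cxcl2, Cxcl3, Cd14 and Acod1 lie above the B cells, and Saa3 and Mt1 below them.

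Fcnb and Cebpe were among the genes that fell, the single specific-granule gene outside the rule and the single listed transcription factor to do so. Fcnb (chromosome 2, 28076479 to 28084910), ficolin B, stood at 867, 174, 11.3 and 12.3 CPM and fell by 4.81 ± 0.71 on the log2 scale (edgeR adjusted p = 0.00807), and it was at 0 in the B cells and mature neutrophils of every library. It rested on 17, 26, 4 and 5 UMIs in 3, 2, 3 and 2 cells, 24 of the 26 in siCont-LNA replicate 2 from one cell. Cebpe stood at 408, 174, 36.7 and 34.4 CPM, in 4, 9, 10 and 8 cells, and fell by 2.65 ± 0.52 (log2, edgeR adjusted p = 0.0325), with B cells at 0.414, 0.948, 0.704 and 1.46 CPM. In the granule-rich cells of siCont-LNA replicate 2 and siFXR1-LNA replicates 1 and 2, Cebpe stood at 208, 81.5 and 65.3 CPM and Fcnb at 246, 27.2 and 27.2 CPM. In the cells under 0.5% of the same libraries Cebpe stood at 90.7, 4.83 and 8.94 CPM and Fcnb at 0. The falls of both genes cannot be told apart from the different mix of granule-rich and granule-poor cells.

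Tfdp1, a partner of E2F factors, stood at 204, 107, 19.8 and 14.7 CPM and Clec12a, an inhibitory lectin receptor, at 51.01, 194, 25.4 and 19.6 CPM, and they fell by 2.85 ± 0.60 and 2.87 ± 0.60 (log2, edgeR adjusted p = 0.0442 and 0.04299). Lta4h, which makes leukotriene B4, stood at 714, 254, 62.1 and 61.4 CPM and Adpgk, a glucokinase that uses ADP, at 612, 534, 93.1 and 93.3 CPM, and both fell (edgeR adjusted p = 0.0388 and 0.0325). Of the 15 genes that fell, 7 stood at over 3 times the B cell level in both libraries labelled siCont-LNA, these 4 together with Fcnb, Cebpe and the predicted gene Gm10282, with Clec12a at a single UMI in siCont-LNA replicate 1.

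The remaining 8 were Cpa3, Mcpt4, Cma1, Cmah, Rtp4, Ifi27l2a, Ets1 and Dock8. Cpa3, Mcpt4 and Cma1 are mast cell proteases. Cpa3 stood at 306, 86.8, 2.82 and 7.36 CPM in the immature neutrophils and 265, 112, 9.86 and 15.5 CPM in B cells, and Cma1 at 459, 220.3, 16.9 and 26.996 CPM and 487, 239, 11.3 and 34.96 CPM. They fell by 4.53 ± 0.82 and 3.60 ± 0.54 (log2, edgeR adjusted p = 0.0315 and 0.00807), and B cells were lower in the same libraries. The mast cell list summed to 510.1, 180.2, 5.64 and 22.1 CPM, with Gata2 at 0 in all 4 libraries. Ifi27l2a, an interferon-induced gene, stood at 306, 320.4, 19.8 and 34.4 CPM and at 1297, 1471, 81.7 and 201 CPM in B cells. The part of RNA from other cells in these falls was not tested.

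The other lists gave few calls. Of the 9 specific-granule genes outside the rule, 0 rose and 1 fell (Fcnb), with a median log2 change of 0.09. Of 10 gelatinase-granule genes 0 passed (median 0.06). Of 6 NADPH oxidase genes 0 passed (median -0.31), and Cybb, at 1989, 1048, 239.8 and 269.96 CPM, came nearest (-2.39 ± 0.55, edgeR adjusted p = 0.0581). Of 8 transcription factors of granulopoiesis tested, Cebpe fell and 0 rose (median -0.34). Cebpb, which serves granulopoiesis in emergencies, stood at 153, 614, 1061 and 2005 CPM (edgeR adjusted p = 0.239) and Cebpd at 561, 320.4, 127 and 95.7 CPM (edgeR adjusted p = 0.0935).

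Of 10 late maturation genes tested Il1b rose and 0 fell (median 0.12). Cxcr2 stood at 51.01, 521, 189 and 299 CPM and Csf3r, the receptor of G-CSF, at 153, 334, 203 and 263 CPM, and the groups overlapped in both. Of 15 receptor and adhesion genes tested 0 passed (median -0.12). Of 7 suppressor-associated genes tested 0 passed (median 1.82). Among these, Wfdc17 stood at 459, 1242, 2415 and 4297 CPM, and Arg1 at 0, 20.03, 133 and 223 CPM with B cells higher, at 179.995, 216, 743 and 793 CPM.

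Of 11 immediate early genes tested all 11 changes were positive (median 1.83), and of 18 hypoxia and glycolysis genes 17 were (median 1.38), but 0 passed in either list. The median over all genes tested was 0.112. Genes of a list come from the same 4 libraries, so a shared sign is not independent support. Egr1 stood at 0, 13.4, 90.3 and 147 CPM, and Vegfa at 102, 13.4, 234 and 169 CPM with B cells at 10.1, 7.06, 326 and 169 CPM. Of 8 type I interferon-stimulated genes tested all 8 changes were negative (median -1.71) and Rtp4 fell (edgeR adjusted p = 0.0325). Rtp4 stood at 102, 147, 2.82 and 17.2 CPM and Irf7, which did not pass, at 204, 46.7, 5.64 and 9.82 CPM, with B cells at 83.2, 105, 3.52 and 24.3 CPM and 112, 137, 3.52 and 19.9 CPM. Of 6 heat shock chaperones (median 0.22) and the single fragile X family gene tested, Fxr1 (0.76), 0 passed.

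**Figure D4:**
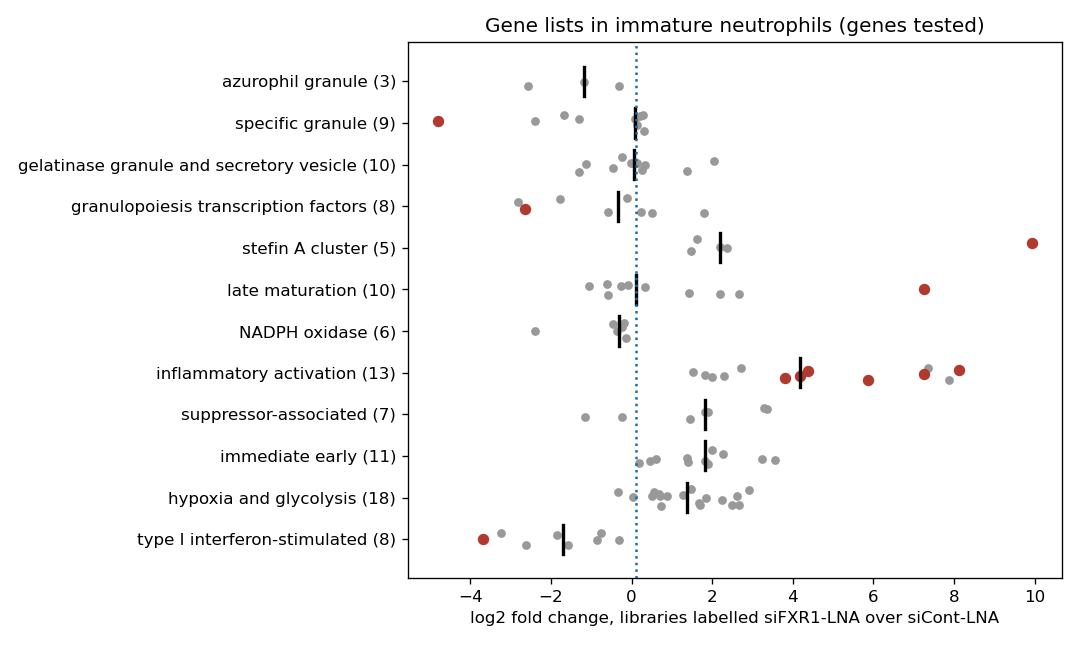
Log2 fold change, siFXR1-LNA label over siCont-LNA label, of each tested gene outside the rule, by list, with the number tested in brackets. Red points passed the test, black bars are list medians (4.19 for inflammatory activation and -1.71 for type I interferon-stimulated genes) and the dotted line is the median of all genes tested, 0.112.

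Cycling was scored as 2 or more UMIs of S and G2/M genes after thinning to 1000 UMIs. It was met by 2 of 5, 2 of 27, 5 of 88 and 1 of 84 immature neutrophils, or 40, 7.41, 5.68 and 1.19%. The exact binomial intervals ran from 5.27, 0.91001, 1.87 and 0.0301% to 85.3, 24.3, 12.8 and 6.46%. The mean difference between labels was -20.3 percentage points (two-sided exact permutation test, p = 0.3333, the smallest possible), and -3.97 without siCont-LNA replicate 1, the library in which it rests on 2 of 5 cells. The groups overlapped after thinning to 2000 UMIs (50, 7.69, 21.4 and 6.02%) and among cells with at least 10 granule UMIs (40, 13.6, 18.4 and 1.96%) or 0.5% or more (40, 5.56, 12.9 and 3.12%). Mature neutrophils, which do not divide, gave 30.8, 11.7, 5.496 and 4.25%, so the background was of the same size. Of 4 S phase and 4 G2/M genes tested 0 passed (medians -0.64 and -0.51).

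An interaction term compared the change between labels in immature neutrophils with that in mature neutrophils, blocked on library. The granule share of the immature cells differed between labels. Interaction values of genes that follow this share therefore cannot be told apart from it. Of 5847 genes tested 84 passed (1.44%), 62 with a higher (1.06%) and 22 with a lower change (0.376%) in the immature cells. Without siFXR1-LNA replicate 1 only 2 passed, without siFXR1-LNA replicate 2 only 3, and by DESeq2 29. Lcn2 stood at 491, 1334, 8571 and 13551 CPM in the mature and 9691, 12930.4, 10157.5 and 16772 CPM in the immature cells, and its changes differed by -3.07 ± 0.82 (edgeR adjusted p = 0.020995). Chil3 stood at 37.2, 446, 2462 and 3907 CPM in the mature cells, with a difference of -3.30 ± 0.63 (edgeR adjusted p = 0.000106). In both libraries labelled siFXR1-LNA the mature cells therefore carried Lcn2 and Chil3 within 1.5 times the level of the immature cells. B cells moved with them, with Lcn2 at 4.56, 21.9, 1066 and 1663 CPM and Chil3 at 2.15, 56.8, 308 and 433 CPM, and their part in the result was not tested.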

How the data were processed

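Single-cell libraries of ascites were counted by the authors with Cell Ranger 7.0.0 against mm10, per the file headers and the submitters' processing notes, and deposited as raw UMI counts per gene and barcode. The labels name different versions of the 10x chemistry, and the study's methods a later Cell Ranger. Here the limits were 400 to 4800 genes per barcode and a mitochondrial share of at most 15%. No doublet caller was run, and the exclusion genes and the upper limit on genes were the only guard. B cells were barcodes with at least 3 UMIs of Cd79a and Cd79b. The members and gene lists were chosen with earlier results of these data known.

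Counts were summed per library and tested with edgeR 4.0.16 (TMM, quasi-likelihood, R 4.3.3), with DESeq2 1.42.0 as an alternative. Library totals ran from 78179267 to 113606837 UMIs. Tested on simulated counts for the immature neutrophils (2918 genes), the test found 21.1% of changes of 2 and 70.0% of changes of 3 on the log2 scale. For the interaction (5397 genes) these shares were 0 and 3.33%. The simulation gave all genes a single preset dispersion that was not estimated from these data. The shares therefore describe the simulated setting and do not measure the power of the test in the real counts. Named were the 10 largest changes in each direction among genes that passed, had a mean of at least 50 CPM and did not overlap between groups, with listed genes that passed. The other 11 genes that passed (F11r, Sdc4, Cass4, Gm10282, Mt1, Adpgk, Trf, Bsg, Lta4h, Ctsl and Dock8) were named after their values had been seen. Promoters are from RefSeq (GRCm38.p6), matched by symbol for 20242 of 32285 genes. Shares were compared with exact permutation tests, with exact binomial and Poisson intervals at 95%. Python 3.11.15, numpy 2.4.6, pandas 2.3.3, scipy 1.17.1 and matplotlib 3.10.9 were used.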

Additional observations from a re-analysis of the deposited data

Results flagged for a closer look

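The change between labels differed between immature and mature neutrophils, by the interaction term of edgeR, for 26 of the listed or named genes. None of the 26 passed without siFXR1-LNA replicate 1 (2 genes did, Aoah and Orm1) or without siFXR1-LNA replicate 2 (3 genes, those and 4930438A08Rik). Each value is the log2 change in the immature minus that in the mature cells. A positive value can come from a rise in the immature or a fall in the mature cells. The granule share of the immature cells also differed between labels, so values of genes that follow it cannot be told apart from it. The change was higher in the immature cells for inflammatory genes, Il1b (7.35), Cxcl2 (3.02), Cxcl3 (8.90), Nlrp3 (3.03), Cd14 (2.46) and Acod1 (2.46). The same held for Stfa3 (10.58), Il1r2 (2.84), Wfdc17 (2.34), Clec4d (2.19), Slfn4 (2.24), Isg15 (2.16), Junb (2.14), Slc2a3 (1.87), Bnip3 (2.24), Cdkn1a (8.45) and Krt19 (8.76). Of these, Isg15 and Slfn4 changed by -0.86 and -0.32 (log2) in the immature cells, and were lower in the mature cells of both libraries labelled siFXR1-LNA. Values above 8 belong to genes with 0 UMIs in the immature cells of both libraries labelled siCont-LNA and are no bound.

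The values of red cell genes were positive as well, Hbb-bt (3.23), Hba-a1 (2.65), Hba-a2 (2.56) and Alas2 (1.85). Hbb-bt stood at 28805, 27504, 9761 and 6862 CPM in the mature cells, lower under the siFXR1-LNA label. In the immature cells it stood at 1224, 4326, 8250 and 3306 CPM, where the groups overlapped. Values were negative for Cybb (-3.82, edgeR adjusted p = 4.25e-14), Chil3 (-3.30), Lcn2 (-3.07), Ets1 (-2.90) and Wfdc21 (-2.01). Cybb stood at 1989, 1048, 239.8 and 269.96 CPM in the immature, 14.9, 55.95, 126 and 199 CPM in the mature and 259.7, 289.7, 260.5 and 389 CPM in B cells. Within libraries Cybb was higher in the granule-rich cells, so its value cannot be told apart from the different mix of cells.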

How the results depend on the processing

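Every one of the 35 genes that could be tested under an alternative kept its direction, but their number moved from 35 to 19 (13 higher and 6 lower) with DESeq2, 94 without TMM, 117 without hemoglobin genes, 86 with at least 1000 genes, 2 with at least 10 granule UMIs, 3 at 0.5% or more, 128 with S100a8 and S100a9 at 5% or more, 161 without the 5% of cells with most UMIs, and 96 with 1 exclusion UMI allowed, an alternative chosen after seeing the data. It was 43 (35 higher and 8 lower) without a filter on low counts, where the median of all genes shifted by 0.67, and 49 (23 higher and 26 lower) after thinning. Leaving out a library gave 44 to 223 genes, the 44 without siCont-LNA replicate 2, where 14 of the 35 passed and the median shifted by 0.82. With the replicate block it was 221, but the numbers mark no shared animals, and with 2 numbers the correlation of deviations (0.234) cannot tell pairs apart. Of 369 values of 24 named genes under alternatives, 301 stayed past the threshold, 68 did not and 0 changed direction.

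The interaction gave 84 genes (62 higher and 22 lower), 29 with DESeq2, 53 with at least 1000 genes, 44 with at least 10 granule UMIs, 46 at 0.5% or more, 18 with S100a8 and S100a9 at 5%, 235 with 1 exclusion UMI allowed and 28 after thinning. Without TMM it gave 101 (60 higher and 41 lower), with a median shift of -0.24, and leaving out a library 2 to 190. The difference in the share of neutrophils was -18.6 percentage points with at least 1000 genes, -3.04 at 0.5% or more and -2.55 with at least 10 granule UMIs, without overlap, but 6.87 with S100a8 and S100a9 at 5%. The cause of these moves was not tested. Requiring 0 UMIs of the macrophage, lymphocyte, dendritic, mast, tumor or mesothelial and stromal markers left 0, 2, 3 and 0 immature neutrophils and gave no value. The 19605 UMIs of siCont-LNA replicate 1 limit what could be seen at low levels.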
